A study of Mus musculus with 12 samples.

Results

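The expression of 10 genes of the interleukin 6 family was followed through mouse colon tumours and normal colon: the ligand genes Il6, Il11, Lif and Osm, the receptor genes Il6st, Osmr, Lifr, Il6ra and Il11ra1, and the feedback inhibitor gene Socs3. They were taken by symbol, as 10 of 24054 gene symbols counted in each library, and all 10 were found. The 12 libraries of poly(A) RNA, all of the immunodeficient strain NSG, formed 3 groups of 4. BTPRZ-T was tumour of the genotype BrafV600E;Tgfbr2-/-;Rnf43-/-/Znrf3-/-;p16 Ink4a-/-, BT-T was tumour of the genotype BrafV600E;Tgfbr2-/-, and N was wild type normal colon next to engrafted tumours. The tumours grew from colonic organoids edited in culture, so the alleles belong to the grafted epithelium and the stroma comes from the host. NSG hosts lack mature T, B and NK cells and keep myeloid cells, fibroblasts and vessels. Nothing in the labels states that libraries within a group are from different animals, so p-values measure the spread between libraries, which may be technical.

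IL-6 family cytokines signal through gp130, the shared receptor subunit encoded by Il6st. IL-6 and IL-11 first bind their own alpha receptors, encoded by Il6ra and Il11ra1, while LIF and oncostatin M pair gp130 with the LIF receptor (Lifr) or the oncostatin M receptor (Osmr). The gp130 complexes activate JAK kinases and the transcription factor STAT3, and STAT3 induces Socs3, whose product binds gp130 and JAKs and ends the signal. In the colon this family is known for epithelial repair after injury, for fibroblast activation and for the growth of tumours.

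Read depth was between 15.7 and 26.1 M gene reads (M, 1000000) per library. Levels are CPM, reads of a gene scaled to 1000000 reads of a library scaled by TMM factors, and 3 reads corresponded to 0.105 to 0.203 CPM. A set of 3 libraries stood apart, BTPRZ-T replicate 4 with 13450 genes detected, BTPRZ-T replicate 1 with 14697 and N replicate 2 with 14175, against 16131 to 17266 in the other 9, and the main results are given with and without them. In N replicate 2, ribosomal protein genes took 9.86% of reads, and in the remaining N libraries 1.46 to 1.79%. Transcripts of the Y-linked gene Ddx3y reached 1 CPM in 1 of 4 BTPRZ-T, 3 of 4 BT-T and 3 of 4 N libraries, so these transcripts were unevenly spread over the groups. Tgfbr2 averaged 200 ± 51.2 CPM in BTPRZ-T, 417 ± 87.7 CPM in BT-T and 194 ± 90.2 CPM in N (SD, n = 4 each), and Cdkn2a, the gene of p16 Ink4a, averaged 23.9 ± 5.78 CPM in BTPRZ-T, 10.9 ± 3.47 CPM in BT-T and 0.281 ± 0.0523 CPM in N. A count over a whole gene also holds reads outside an edited site and reads of host cells, so these levels do not check the labelled deletions. Epithelial markers summed to between 8110 and 16840 CPM in BTPRZ-T, between 9274 and 11210 CPM in BT-T, and between 10870 and 13260 CPM in N, so epithelium was present in every library. Of 9 lymphocyte markers, 8 stayed under 1 CPM in each library and the exception was Cd4.

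Of the 10 genes, 5 passed the test as higher in BT-T than in N: Lif, Osm, Osmr, Lifr and Il6st. In BTPRZ-T against N, 2 of the 10 passed as higher, Il11 and Osm. In BTPRZ-T against BT-T, 2 of the 10 passed as lower, Lifr and Il6st. A gene passed where its Benjamini-Hochberg adjusted p, from the quasi-likelihood test of edgeR over all 14860 genes tested, was under 0.05. For all genes tested, the shares that passed were 8.57% in BT-T against N (5.67% higher), 11.8% in BTPRZ-T against N (5.66% higher) and 0.754% in BTPRZ-T against BT-T (0.599% lower). The median log2 fold change of the 10 genes was 1.42 in BT-T against N, 0.92 in BTPRZ-T against N and -1.26 in BTPRZ-T against BT-T, against -0.10, -0.10 and -0.03 over all genes tested. All 10 passed the filter on low counts. Osm passed it through its tumour libraries alone, so that it had to differ from N, and without it 4 of 9 passed the test in BT-T against N and 1 of 9 in BTPRZ-T against N. Il11, with 9, 40, 3 and 0 reads in N, and Il6, with 0, 62, 0 and 0, also passed the filter through their tumour libraries. The 1 of 9 in BTPRZ-T against N was Il11, so that count is not free of this limit. The 3 comparisons share libraries, so their results are not independent of each other.

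**Figure D1:**
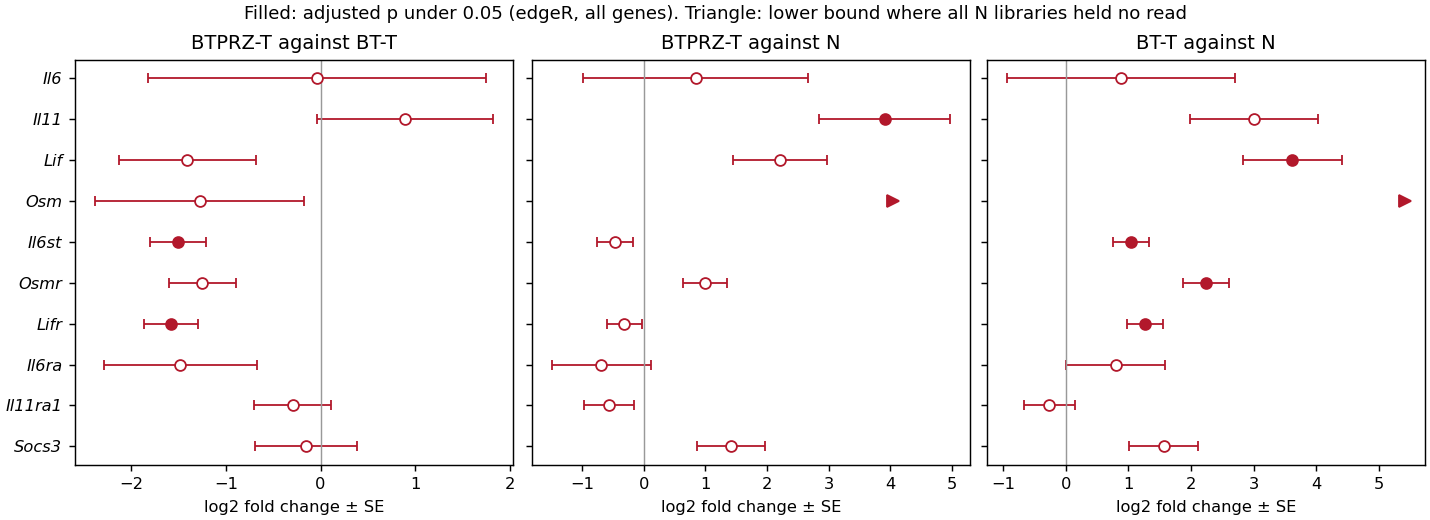
Log2 fold changes of the 10 genes (rows) in the 3 comparisons (panels), with standard errors as bars, from the edgeR fit over 12 libraries. Filled symbols passed at an adjusted p under 0.05, and triangles stand for the lower bounds of Osm, for which all 4 N libraries held no read. In all, 9 of 10 genes lie above 0 in BT-T against N, and Il11 alone lies above 0 in BTPRZ-T against BT-T.

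Without N replicate 2, the counts were 7 higher of 10 in BT-T against N (13.5% of all genes passed, 7.79% higher), 5 higher in BTPRZ-T against N (32.3% of all genes, 16.6% higher) and 5 lower in BTPRZ-T against BT-T (18% of all genes, 8.23% lower). Without that library, Il11 and Socs3 were added in BT-T against N, Il6, Lif and Socs3 in BTPRZ-T against N, and Lif, Osmr and Il6ra in BTPRZ-T against BT-T. Il6 and Osm then held no N read and passed the filter through the tumours alone, so their calls against N are descriptions. Without all 3 libraries with few detected genes, the counts were 8 higher in BT-T against N, 4 higher and 2 lower in BTPRZ-T against N and 5 lower in BTPRZ-T against BT-T, with 28.7% (16.1% higher), 34.9% (18.1% higher, 16.8% lower) and 24.5% (14.8% lower) of all genes passing. Il6 and Osm, again without an N read, are among the 8, and Osm is among the 4. DESeq2 on all 12 libraries passed 7 of the 10 in BT-T against N, 3 in BTPRZ-T against N and 3 in BTPRZ-T against BT-T, with 16.1%, 20.5% and 8.19% of all genes. With a term for Y-linked transcripts, an alternative chosen after seeing the data, 0 of 10 passed in BTPRZ-T against N (4 at an unadjusted p under 0.05), where 1063 of all genes passed. In BTPRZ-T against BT-T, 0 of 10 passed with that term (3 at an unadjusted p under 0.05), and 0 of all genes (1856 at an unadjusted p under 0.05). With a term for replicate number, 4 of 10 passed in BT-T against N, 1 in BTPRZ-T against N and 0 in BTPRZ-T against BT-T. Of all genes, 945, 1160 and 1 passed with it in those comparisons.

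Promoter sequences are shown for the 5 genes in which a searched motif was found, so that the letters can be set beside the levels that follow. They are RefSeq sequences on the build GRCm38.p6, from 250 bases before to 50 bases after a transcript start, written from 5′ to 3′ on the gene's strand, and 12 such windows were found for 9 of the 10 genes. The 4 motifs searched, on both strands, were TTCNNNGAA (STAT), TGANTCA (AP-1), GGANTTTCC (NF-kB) and TTGCNNCAA. AP-1 stands for the Fos and Jun factors, which act downstream of the MAP kinase cascade that BRAF belongs to. The letters TTGCNNCAA were meant for C/EBP factors but do not match their consensus site, so C/EBP sites were not searched for. Among 32851 promoter windows of the same length, 8.3% held the STAT letters, 7.81% the AP-1 letters, 1.25% the NF-kB letters and 2.08% the letters TTGCNNCAA. Capitals mark the matches, which did not overlap.
Il6, chr5:30012864-30013163, plus strand: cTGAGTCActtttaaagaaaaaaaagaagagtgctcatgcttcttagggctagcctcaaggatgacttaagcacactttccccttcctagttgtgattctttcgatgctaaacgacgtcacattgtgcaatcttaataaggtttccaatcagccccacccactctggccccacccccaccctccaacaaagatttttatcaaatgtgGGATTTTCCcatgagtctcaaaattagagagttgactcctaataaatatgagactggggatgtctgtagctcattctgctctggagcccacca
Il11, chr7:4778092-4778391, minus strand: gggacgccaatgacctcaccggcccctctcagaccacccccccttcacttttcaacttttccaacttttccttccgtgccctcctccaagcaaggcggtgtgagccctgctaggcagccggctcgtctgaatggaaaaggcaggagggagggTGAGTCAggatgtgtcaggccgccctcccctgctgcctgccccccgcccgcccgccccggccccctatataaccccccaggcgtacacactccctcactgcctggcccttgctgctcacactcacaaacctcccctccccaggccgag
Lif, chr11:4257318-4257617, plus strand: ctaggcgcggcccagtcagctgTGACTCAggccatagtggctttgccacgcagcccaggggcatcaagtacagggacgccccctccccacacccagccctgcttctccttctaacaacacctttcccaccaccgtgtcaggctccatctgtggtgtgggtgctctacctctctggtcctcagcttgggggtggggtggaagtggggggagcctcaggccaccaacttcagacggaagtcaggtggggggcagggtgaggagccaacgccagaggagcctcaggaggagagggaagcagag
Osmr, chr15:6874264-6874563, minus strand: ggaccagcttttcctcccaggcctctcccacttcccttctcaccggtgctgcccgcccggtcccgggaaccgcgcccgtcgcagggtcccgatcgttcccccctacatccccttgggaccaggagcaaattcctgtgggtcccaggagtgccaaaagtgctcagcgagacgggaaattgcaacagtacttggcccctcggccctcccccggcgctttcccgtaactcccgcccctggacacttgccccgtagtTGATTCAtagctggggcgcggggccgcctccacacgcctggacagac
Socs3, chr11:117969317-117969616, minus strand: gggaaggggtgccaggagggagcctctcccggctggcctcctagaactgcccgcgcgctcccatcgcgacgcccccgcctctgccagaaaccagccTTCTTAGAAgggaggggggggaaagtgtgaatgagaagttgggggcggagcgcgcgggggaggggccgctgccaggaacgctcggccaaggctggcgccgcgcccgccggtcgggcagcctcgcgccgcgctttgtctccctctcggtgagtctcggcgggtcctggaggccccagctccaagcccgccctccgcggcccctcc
The AP-1 letters stood at -249 in Il6, at -98 in Il11, at -228 in Lif and at 4 in Osmr, counted from the transcript start to the first base of the match. The Il6 window also held the NF-kB letters at -43, and the Socs3 window held the STAT letters at -154. The other windows, those of Il6ra, Il11ra1, Lifr and Il6st and the Il11 start not printed here (chr7:4782808-4783107), held none of the 4 motifs. Whether any window, printed or not, held a C/EBP site was not tested. A match is a run of letters in the reference and not a measured binding site.

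Among the ligands, Lif separated all 3 groups. LIF is a cytokine that keeps mouse stem cells undifferentiated and acts on epithelium and stroma through Lifr and gp130. Lif lies on chromosome 11 (GRCm38, 4257557 to 4272514, plus strand), and its level was 8.13, 20.0, 23.5 and 6.85 CPM in the 4 BTPRZ-T libraries, 32.3, 46.9, 46.7 and 29.4 CPM in the 4 BT-T libraries, and 4.61, 0.0677, 2.07 and 5.87 CPM in the 4 N libraries. The 3 groups did not overlap: every BT-T library was above every BTPRZ-T library, and every BTPRZ-T library was above every N library. Means were 14.6 ± 8.37 CPM in BTPRZ-T, 38.8 ± 9.26 CPM in BT-T and 3.15 ± 2.595 CPM in N (SD, n = 4 each). Lif was 12.3-fold higher in BT-T than in N (log2 fold change 3.62 ± 0.79 SE, edgeR adjusted p = 0.0146), and it passed in all 22 alternative analyses. The log2 fold change of BTPRZ-T against N was 2.21 ± 0.75 (adjusted p = 0.0791), and without N replicate 2, which held a single Lif read, it was 1.81 with an adjusted p of 0.0153. BTPRZ-T against BT-T gave -1.41 ± 0.72 (adjusted p = 0.335), and without N replicate 2 the same -1.41 had an adjusted p of 0.0388.

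Oncostatin M, a product of activated myeloid cells that acts on fibroblasts and epithelium through Osmr, was measured at low counts. Osm (chromosome 11, 4236420 to 4241026, plus strand) had 1.48, 1.15, 0.716 and 0 CPM in BTPRZ-T, from 23, 24, 13 and 0 reads. In BT-T it had 1.53, 3.80, 2.12 and 0.659 CPM, from 44, 78, 51 and 13 reads. No N library held an Osm read, which allows a level of up to 3 reads, or 0.047 CPM over the 4 N libraries together. All 4 BT-T libraries and 3 of 4 BTPRZ-T libraries thus stood above N. Set against that floor, Osm was at least 42.6-fold higher in BT-T and at least 16.5-fold higher in BTPRZ-T, and floors cover counting error only. The edgeR adjusted p was 0.0217 in BT-T and 0.034 in BTPRZ-T, and with no filter it was 0.0197 and 0.0331; as Osm entered through the tumour libraries, these are given as a description. The call in BT-T was lost without BT-T replicate 2 or 3 or N replicate 1 (adjusted p up to 0.063). The call in BTPRZ-T was lost in 12 of 20 alternatives, among them leaving out BTPRZ-T replicate 1, 2 or 3, BT-T replicate 1, 2 or 3, or N replicate 1, 3 or 4 (adjusted p up to 0.0725 with 1 library left out). Osm averaged 0.837 ± 0.641 CPM in BTPRZ-T and 2.03 ± 1.32 CPM in BT-T, and this difference did not pass (log2 fold change -1.28 ± 1.11, adjusted p = 0.562).

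Il11 was the ligand that passed in BTPRZ-T and not in BT-T, although the difference between the tumours did not pass itself. IL-11 is a cytokine of fibroblasts and epithelium that acts on cells with Il11ra1. Il11 (chromosome 7, 4772373 to 4782859, minus strand) had 26.8, 8.66, 3.03 and 12.4 CPM in BTPRZ-T, 4.46, 9.49, 10.03 and 3.34 CPM in BT-T, and 0.518, 2.71, 0.177 and 0 CPM in N. Both tumour groups stood above N without overlap and overlapped each other, and N replicate 2 carried 40 of the 52 Il11 reads of N. Il11 was higher in BTPRZ-T than in N (log2 fold change 3.903 ± 1.06, adjusted p = 0.0318), and with no filter the edgeR adjusted p was 0.0301. As Il11 entered through the tumour libraries, these are given as a description. The call was lost without BTPRZ-T replicate 1 or 2 or N replicate 1 or 3 (adjusted p up to 0.0892), and without N replicate 2 the value was 5.70 (adjusted p = 0.00169). BT-T against N gave 3.01 ± 1.02 (adjusted p = 0.093), and 4.80 without N replicate 2 (adjusted p = 0.00698). BTPRZ-T against BT-T gave 0.89 ± 0.93 (adjusted p = 0.625), with means of 12.7 ± 10.1 CPM in BTPRZ-T and 6.83 ± 3.42 CPM in BT-T, and without the 3 libraries with few detected genes it was -0.21 (adjusted p = 0.846).

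Il6, the cytokine that gives the family its name and the main inducer of the acute phase response, passed in no comparison when all 12 libraries were used. Il6 (chromosome 5, 30013114 to 30019981, plus strand) had 7.16, 0.335, 0.0551 and 0 CPM in BTPRZ-T, from 111, 7, 1 and 0 reads. It had 1.95, 3.02, 1.96 and 0.760 CPM in BT-T, from 56, 62, 47 and 15 reads. In N, replicate 2 had 4.20 CPM, from 62 reads, and the other 3 libraries held no Il6 read. One library thus set the mean of BTPRZ-T and 1 library set that of N, while all 4 BT-T libraries held the transcript. The log2 fold changes were 0.88 ± 1.82 in BT-T against N (adjusted p = 0.825), 0.84 ± 1.83 in BTPRZ-T against N (adjusted p = 0.843) and -0.04 ± 1.79 in BTPRZ-T against BT-T (adjusted p = 0.992). Without N replicate 2, where no N library held a read, Il6 was at least 31.7-fold higher in BT-T (adjusted p = 0.0845) and at least 25.2-fold higher in BTPRZ-T (adjusted p = 0.0479). In that setting Il6 passed the filter through the tumour libraries alone, so these values are given as a description. BTPRZ-T replicate 1 held 111 of the 119 Il6 reads of BTPRZ-T. Without BTPRZ-T replicate 1, the value of BTPRZ-T against N turned to -2.94 (adjusted p = 0.406). Without all 3 libraries with few detected genes, Il6 passed as higher in BT-T than in N (adjusted p = 0.00219) and as lower in BTPRZ-T than in BT-T (log2 fold change -3.21, adjusted p = 0.0316). The N libraries left there held no Il6 read either, so the call against N is a description as well. Neutrophil markers, 8 genes in all, summed to 20.9 CPM in N replicate 2 and 2.03 to 3.07 CPM in the other N libraries, and to 63.0 CPM in BTPRZ-T replicate 1 and 11.02 to 43.0 CPM in the other BTPRZ-T libraries. Of these 8 genes, Retnlg, Camp and Ngp were under 1 CPM in every library, and the part of neutrophils in the Il6 values was not tested.

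**Figure D2:**
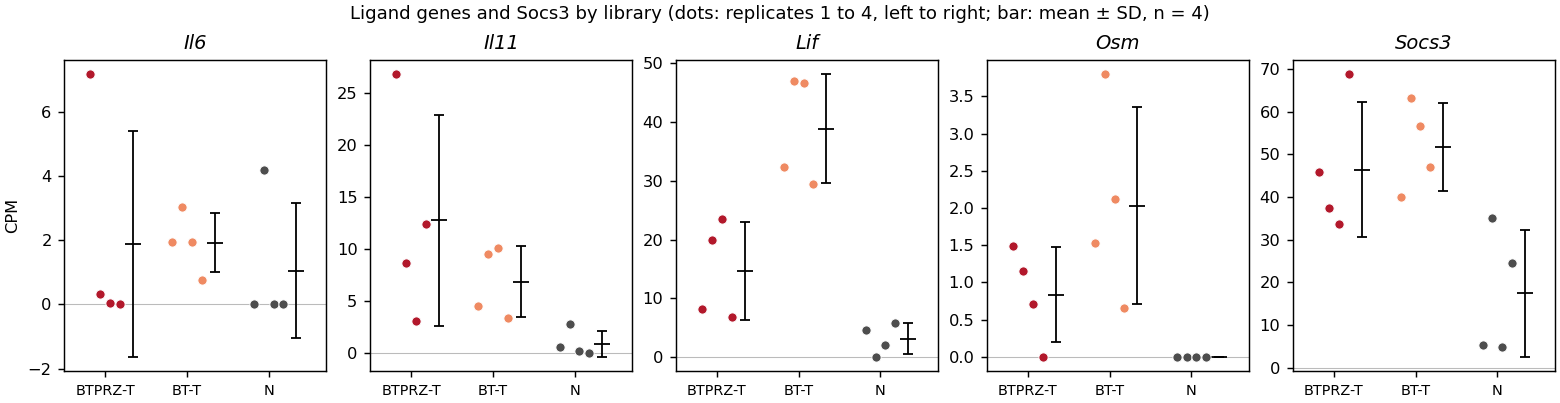
Levels in CPM (vertical axes, 1 scale per gene) of the 4 ligand genes and Socs3 in BTPRZ-T, BT-T and N, with 1 dot per library (replicates 1 to 4 from left to right) and a bar for the mean ± SD (n = 4). Lif separates all 3 groups, Osm is at 0 in all 4 N libraries, and single libraries lead Il6, at 7.16 CPM in BTPRZ-T and 4.20 CPM in N.

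Among the receptors, Osmr, Lifr and Il6st were higher in BT-T than in N, and Lifr and Il6st were lower in BTPRZ-T than in BT-T. Osmr encodes the signalling chain of the oncostatin M receptor (chromosome 15, 6813577 to 6874969, minus strand). Its level was 19.4, 25.9, 13.7 and 47.5 CPM in BTPRZ-T, 60.6, 67.2, 59.2 and 66.4 CPM in BT-T, and 9.96, 11.6, 11.99 and 20.0 CPM in N. The 4 BT-T libraries lay close together and above all 8 other libraries, while BTPRZ-T overlapped N. Osmr was 4.74-fold higher in BT-T than in N (log2 fold change 2.24 ± 0.37, adjusted p = 0.00288) and passed in all 22 alternatives. BTPRZ-T against N gave 0.99 ± 0.35 (adjusted p = 0.0924), which passed without BTPRZ-T replicate 3 (1.21, adjusted p = 0.0382) and was 0.57 without BTPRZ-T replicate 4 (adjusted p = 0.258). BTPRZ-T against BT-T gave -1.25 ± 0.35 (adjusted p = 0.11), with no overlap between the libraries, and passed without BTPRZ-T replicate 4 (-1.72, adjusted p = 0.0308) or N replicate 2 (-1.25, adjusted p = 0.0274).

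Lifr, the receptor chain shared by LIF and several other ligands of the family, lies on the same chromosome as Osmr (7090614 to 7197489, plus strand). It had 13.9, 7.99, 7.33 and 9.73 CPM in BTPRZ-T, 32.0, 28.9, 22.6 and 33.1 CPM in BT-T, and 13.4, 7.92, 14.7 and 12.4 CPM in N. The BT-T libraries stood above all others, and BTPRZ-T and N overlapped. Lifr was 2.41-fold higher in BT-T than in N (log2 fold change 1.27 ± 0.29, adjusted p = 0.0165), a call lost without BT-T replicate 2 or 4 (adjusted p up to 0.0562). It was 2.99-fold lower in BTPRZ-T than in BT-T (log2 fold change -1.58 ± 0.29, adjusted p = 0.0353). That call was lost without BT-T replicate 1, 2 or 4, BTPRZ-T replicate 2 or 3, or N replicate 1 (adjusted p up to 0.152). It was also lost with the term for Y-linked transcripts (adjusted p = 0.1) and with the term for replicate number (adjusted p = 0.0738). Without N replicate 2 its adjusted p was 0.00382. BTPRZ-T against N gave -0.31 ± 0.28 (adjusted p = 0.558), and -0.76 without the 3 libraries with few detected genes (adjusted p = 0.0171).

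Il6st, the gene of gp130, was the most abundant receptor in every group, also per kilobase of exon. Its level (chromosome 13, 112464070 to 112510086, plus strand) was 93.6, 115, 88.7 and 135 CPM in BTPRZ-T, 231, 388, 237 and 372 CPM in BT-T, and 144, 89.3, 205 and 158 CPM in N. All 4 BT-T libraries were above the 8 others, and the BTPRZ-T and N ranges overlapped. Il6st was 2.06-fold higher in BT-T than in N (log2 fold change 1.04 ± 0.29, adjusted p = 0.0445) and 2.84-fold lower in BTPRZ-T than in BT-T (log2 fold change -1.51 ± 0.29, adjusted p = 0.0438). Both calls lay close to the threshold: each was lost when BT-T replicate 1, 2, 3 or 4, BTPRZ-T replicate 1, 2 or 3, or N replicate 1 or 4 was left out, with adjusted p up to 0.151 for BT-T against N and up to 0.165 for BTPRZ-T against BT-T. With the term for Y-linked transcripts both were lost, at adjusted p = 0.146 for BTPRZ-T against BT-T. With the term for replicate number both were lost too, at adjusted p = 0.0988 for BT-T against N and 0.0973 for BTPRZ-T against BT-T. Without N replicate 2 both calls held, at adjusted p = 0.0362 and 0.00424. BTPRZ-T against N gave -0.46 ± 0.29 (adjusted p = 0.361).

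The alpha receptors did not pass in any comparison with all 12 libraries. Il6ra, the IL-6 receptor (chromosome 3, 89864059 to 89913196, minus strand), had 7.68, 4.26, 7.49 and 2.18 CPM in BTPRZ-T, 11.4, 17.0, 13.03 and 18.95 CPM in BT-T, and 7.60, 0.203, 6.56 and 20.4 CPM in N. Every BT-T library was above every BTPRZ-T library, while N spanned from 3 reads in replicate 2 to the highest level of all in replicate 4. The log2 fold change of BTPRZ-T against BT-T was -1.48 ± 0.81 (adjusted p = 0.362), and -1.49 with an adjusted p of 0.0412 without N replicate 2. Il11ra1, the IL-11 receptor (chromosome 4, 41699989 to 41769474, plus strand), had 15.6, 8.38, 6.06 and 18.9 CPM in BTPRZ-T, 11.9, 17.4, 11.5 and 19.3 CPM in BT-T, and 11.9, 30.1, 13.5 and 16.7 CPM in N. The 3 groups overlapped, with log2 fold changes of -0.29 ± 0.41 in BTPRZ-T against BT-T (adjusted p = 0.721), -0.56 ± 0.41 in BTPRZ-T against N (adjusted p = 0.448) and -0.27 ± 0.41 in BT-T against N (adjusted p = 0.753). Il11ra1 has near-identical copies in the mouse genome and the files list 0 reads placed at several loci, so its levels are uncertain; its copy Il11ra2 held no read in any library. Without the 3 libraries with few detected genes, Il11ra1 passed as lower in BTPRZ-T than in BT-T (-1.05, adjusted p = 0.0284) and than in N (-0.89, adjusted p = 0.0452).

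**Figure D3:**
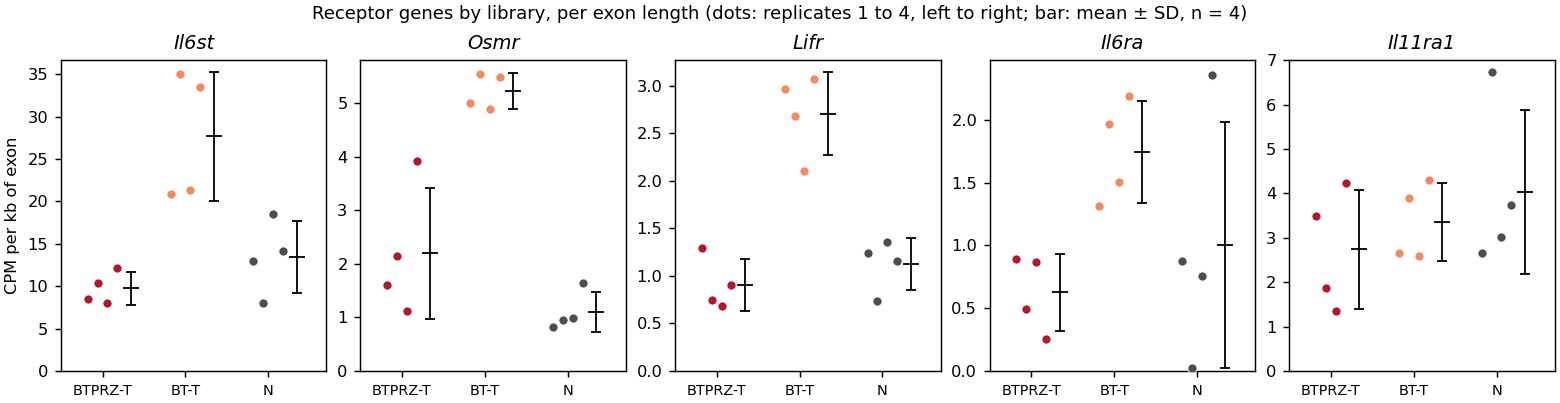
Levels of the 5 receptor genes in CPM per kilobase of exon (vertical axes, 1 scale per gene) in BTPRZ-T, BT-T and N, with 1 dot per library (replicates 1 to 4 from left to right) and a bar for the mean ± SD (n = 4). The 4 BT-T libraries stand above the other 8 for Il6st, Osmr and Lifr, whereas the groups overlap for Il11ra1.

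Per kilobase of exon, which allows genes to be compared, the order of the receptors differed between groups. In BTPRZ-T the mean levels were 9.74 ± 1.92 CPM per kb for Il6st, 2.74 ± 1.35 for Il11ra1, 2.198 ± 1.22 for Osmr, 0.905 ± 0.276 for Lifr and 0.625 ± 0.308 for Il6ra. In BT-T they were 27.7 ± 7.62 CPM per kb for Il6st, 5.23 ± 0.334 for Osmr, 3.36 ± 0.875 for Il11ra1, 2.71 ± 0.438 for Lifr and 1.74 ± 0.404 for Il6ra. In N they were 13.4 ± 4.28 CPM per kb for Il6st, 4.04 ± 1.85 for Il11ra1, 1.12 ± 0.272 for Lifr, 1.10 ± 0.370 for Osmr and 1.00 ± 0.978 for Il6ra. Osmr was thus above Il11ra1 in BT-T, while in N Osmr, Lifr and Il6ra lay within 1 SD of each other and below Il11ra1. Il11ra1 and Osmr lay within 1 SD of each other in BTPRZ-T. Among the ligands, Il11 led in BTPRZ-T with 6.11 ± 4.87 CPM per kb, ahead of Lif with 3.36 ± 1.92, a difference within their spread. Without the 3 libraries with few detected genes the order turned round, with Lif at 4.998 ± 0.579 and Il11 at 2.81 ± 1.92 CPM per kb in the 2 BTPRZ-T libraries left, where Osmr (1.64) and Il11ra1 (1.61) also changed places. In BT-T Lif led with 8.93 ± 2.13 CPM per kb, and Il11 stood at 3.28 ± 1.64.

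The ratio of Osmr to Lifr within a library, per kilobase of exon, was 1.24, 2.89, 1.66 and 4.34 in BTPRZ-T, 1.69, 2.07, 2.33 and 1.78 in BT-T, and 0.661, 1.30, 0.728 and 1.43 in N. Every BT-T ratio was above every N ratio, and BTPRZ-T overlapped both groups. The medians were 2.28 in BTPRZ-T, 1.92 in BT-T and 1.01 in N. Osmr over Il6st had medians of 0.198 in BTPRZ-T, 0.196 in BT-T and 0.0897 in N, with ranges of 0.141 to 0.322, 0.159 to 0.241 and 0.0536 to 0.119, so both tumour groups lay above N without overlap. Lifr over Il6st had medians of 0.0796, 0.0949 and 0.0862 in BTPRZ-T, BT-T and N, and its ranges overlapped. These ratios do not depend on the scaling of the libraries.

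**Figure D4:**
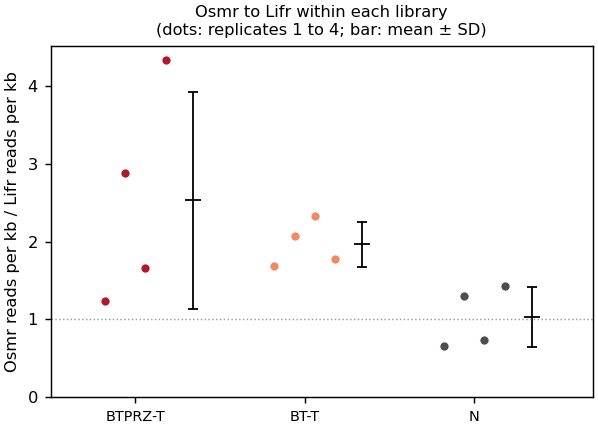
Ratio of Osmr to Lifr reads per kilobase of exon within each library (vertical axis), with 1 dot per library (replicates 1 to 4 from left to right) in BTPRZ-T, BT-T and N and a bar for the mean ± SD (n = 4). All 4 BT-T libraries lie between 1.69 and 2.33, above the 4 N libraries at 0.661 to 1.43.

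Socs3, the feedback inhibitor that STAT3 induces, was higher in BT-T than in every N library without passing the test. Socs3 (chromosome 11, 117966079 to 117970047, minus strand) had 45.8, 37.5, 33.7 and 68.7 CPM in BTPRZ-T, 40.04, 63.2, 56.6 and 47.1 CPM in BT-T, and 5.47, 35.1, 4.84 and 24.6 CPM in N. N replicates 2 and 4 were high within their group, and replicate 2 reached into the range of BTPRZ-T. The log2 fold change was 1.57 ± 0.55 in BT-T against N (adjusted p = 0.105), 1.41 ± 0.55 in BTPRZ-T against N (adjusted p = 0.123) and -0.16 ± 0.54 in BTPRZ-T against BT-T (adjusted p = 0.894). Without N replicate 2, Socs3 passed against N both in BTPRZ-T (2.00, adjusted p = 0.0127) and in BT-T (2.16, adjusted p = 0.0166). Across the 10 genes, the libraries did not overlap for 7 genes in BT-T against N, all higher, for 2 genes in BTPRZ-T against N, Il11 and Lif, both higher, and for 5 genes in BTPRZ-T against BT-T, all lower. For all genes tested, the shares without overlap in those directions were 13.4%, 6.88% and 12.7%. Osm and Il11, which passed the filter through their tumour libraries, are among the 7, and Il11 is among the 2. Their separation from N is thus a description.

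Other ligands and receptor parts that share gp130 were mostly near or below the limit of detection. Of 7 further ligand genes, 3 passed the filter on low counts, and 1 of them, Clcf1, passed as higher against N in both tumours, where its N libraries held 1, 1, 6 and 2 reads and the tumours carried it through the filter. Clcf1, a ligand of the ciliary neurotrophic factor receptor, had 6.65, 4.79, 9.53 and 3.01 CPM in BTPRZ-T, 3.14, 3.55, 4.58 and 2.38 CPM in BT-T, and 0.0576, 0.0677, 0.355 and 0.135 CPM in N. Its log2 fold change was 5.22 ± 0.70 in BTPRZ-T (adjusted p = 0.000796) and 4.41 ± 0.68 in BT-T (adjusted p = 0.00217), and both calls held in all 22 alternatives, the one with no filter among them (adjusted p = 0.000778 in BTPRZ-T and 0.00191 in BT-T). As Clcf1 entered through the tumour libraries, these values are given as a description. Of 5 further receptor genes, 3 passed the filter. Ctf2, Il31, Il31ra and Il11ra2 held no read in any library.

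The kinases, STATs and inhibitors of the pathway passed in no comparison with all 12 libraries. Of 8 kinases, STATs and adaptors, 0 passed in edgeR in the 3 comparisons, with 0 at an unadjusted p under 0.05 in BTPRZ-T against BT-T, 1 in BTPRZ-T against N and 2 in BT-T against N. DESeq2 gave 1 of 8 in each tumour against N and 0 between the tumours, and limma with voom 1 of 8 in BT-T against N. Of 7 inhibitors other than Socs3, 0 passed in edgeR or DESeq2 in any comparison, and 0 had an unadjusted p under 0.05 in edgeR. Stat3, the main transcription factor of the pathway, had 145, 196, 214 and 212 CPM in BTPRZ-T, 238, 282, 253 and 288 CPM in BT-T, and 158, 75.5, 177 and 246 CPM in N. BT-T against N gave a log2 fold change of 0.69 ± 0.30 for Stat3 (adjusted p = 0.187). Without the 3 libraries with few detected genes, Stat3 passed as higher in BT-T than in N (0.52, adjusted p = 0.0367).

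Among 28 known STAT3 target genes, 27 passed the filter, and 7 passed the test as higher in BTPRZ-T than in N, 5 as higher in BT-T than in N and 0 between the tumours (3 at an unadjusted p under 0.05, and 1 by DESeq2, Il4ra, which was lower in BTPRZ-T). None passed as lower. Over all genes tested, 5.66% passed as higher in BTPRZ-T against N and 5.67% in BT-T against N. Between the tumours, 0.754% of all genes passed in either direction, and 8.19% in DESeq2. The median log2 fold change of the 27 was 0.57 in BTPRZ-T against N, 0.78 in BT-T against N and -0.10 in BTPRZ-T against BT-T, against -0.10, -0.10 and -0.03 over all genes. Il4ra, the interleukin 4 receptor, had 104, 119, 115 and 115 CPM in BTPRZ-T, 157, 188, 171 and 180 CPM in BT-T, and 68.7, 59.6, 72.1 and 63.8 CPM in N, so that the 3 groups did not overlap. Its log2 fold change was 0.78 ± 0.17 in BTPRZ-T (adjusted p = 0.0112) and 1.40 ± 0.17 in BT-T (adjusted p = 0.000616) against N. In BT-T against N, Lbp, which binds bacterial lipopolysaccharide, rose by 3.44 ± 0.58 (adjusted p = 0.00346), the kinase gene Pim1 by 1.33 ± 0.25 (adjusted p = 0.00603) and the adhesion molecule gene Icam1 by 1.68 ± 0.39 (adjusted p = 0.0206) on the log2 scale. In BTPRZ-T against N, the growth factor gene Vegfa rose by 1.46 ± 0.32 (adjusted p = 0.0122), Icam1 by 1.57 ± 0.39 (adjusted p = 0.0222) and the cyclin gene Ccnd1 by 1.32 ± 0.34 (adjusted p = 0.0246). These genes answer to other factors as well, NF-kB among them for Icam1. Without N replicate 2 the counts were 10 higher in BTPRZ-T against N, 9 higher in BT-T against N and 2 lower in BTPRZ-T against BT-T, namely Pim1 and Il4ra, and DESeq2 gave 9 higher and 3 lower in BT-T against N. The shares over all genes without N replicate 2 were 16.6% higher, 7.79% higher and 8.23% lower in those 3 comparisons. In DESeq2, 16.1% of all genes passed in BT-T against N in either direction.

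Markers of stromal and myeloid cells differed between the groups, and not all in the direction of these genes. The 11 fibroblast markers summed to between 1905 and 8635 CPM in BTPRZ-T, between 8729 and 17010 CPM in BT-T, and between 1267 and 2057 CPM in N. The 10 macrophage markers summed to between 393 and 2910 CPM in BTPRZ-T, between 1176 and 1917 CPM in BT-T, and between 179 and 677 CPM in N. For fibroblasts the 4 BT-T libraries were above all 8 others, as for Osmr, Lifr and Il6st, and for macrophages BT-T was above N without overlap and BTPRZ-T overlapped both. Of the fibroblast markers, 4 of 11 passed as higher in BTPRZ-T against N, 8 of 11 in BT-T against N and 0 of 11 in BTPRZ-T against BT-T (edgeR), where 8 had an unadjusted p under 0.05, 7 passed as lower in DESeq2, 1 in limma with voom, and 6 in edgeR without N replicate 2. Of the macrophage markers, 5 of 10 passed as higher in BTPRZ-T against N, 7 of 10 in BT-T against N and 0 of 10 in BTPRZ-T against BT-T (1 at an unadjusted p under 0.05). The shares of all genes tested that passed as higher were 5.66% in BTPRZ-T against N and 5.67% in BT-T against N. Between the tumours, 8.19% of all genes passed in DESeq2 in either direction, and 8.23% as lower in edgeR without N replicate 2. The 10 endothelial markers summed to between 335 and 688 CPM in BTPRZ-T, between 453 and 873 CPM in BT-T, and between 172 and 278 CPM in N, and the 10 smooth muscle markers summed to between 527 and 5082 CPM in BTPRZ-T, between 3885 and 6424 CPM in BT-T, and between 7924 and 19780 CPM in N. Of the endothelial markers, 2 of 10 passed as higher in BTPRZ-T against N, 4 of 10 in BT-T against N and 0 of 10 between the tumours. Of the smooth muscle markers, 7 of 10 passed as lower in BTPRZ-T against N, 0 of 10 in BT-T against N and 2 of 10 as lower in BTPRZ-T against BT-T. Of the 14860 genes tested, 919 passed as lower in BTPRZ-T against N and 89 in BTPRZ-T against BT-T. No fibroblast, macrophage or endothelial marker was under 1 CPM throughout a group. In bulk tissue a change in the number of cells of a type and a change in RNA per cell cannot be told apart, and the part of these cells in the ligand and receptor levels was not tested.

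**Figure D5:**
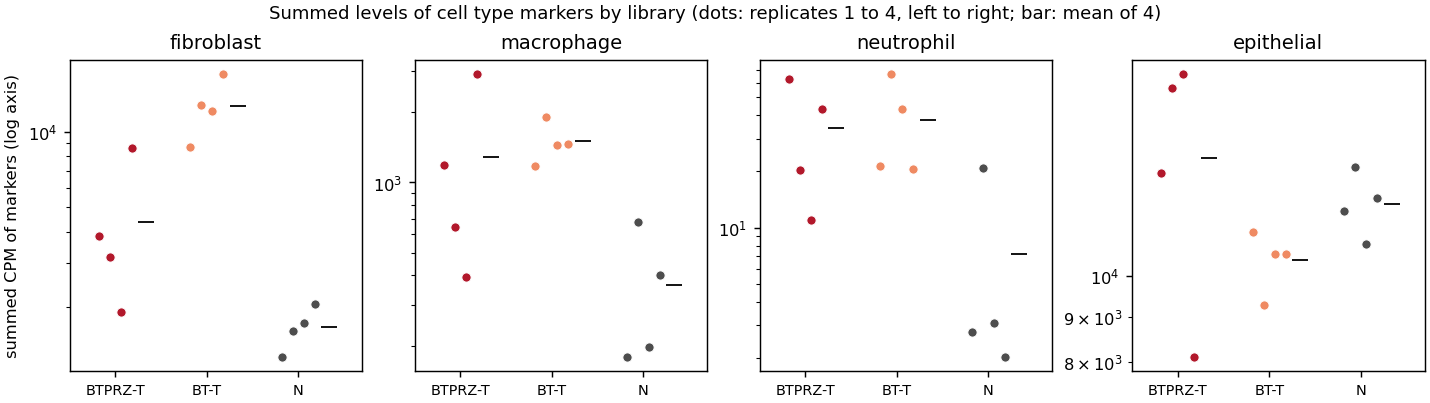
Summed CPM (vertical axes, log scale) of 11 fibroblast, 10 macrophage, 8 neutrophil and 9 epithelial marker genes in BTPRZ-T, BT-T and N, with 1 dot per library (replicates 1 to 4 from left to right) and a bar for the mean. Fibroblast markers are highest in the 4 BT-T libraries, and N replicate 2 stands apart from the other N libraries for neutrophil markers at 20.9 CPM.

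The genes whose pattern over the 12 libraries came closest to the ligands and Socs3 were chosen by the root mean square difference of log2(CPM + 0.5), each gene centred on its own mean, among 13280 genes (13281 for Osm). For Il6 they were Ptgs2 at 0.611, Cxcr2 at 0.655 and Sdr16c5 at 0.656, against a spread of 1.39 of Il6 around its own mean. Ptgs2, which makes prostaglandins, had 74.1 CPM in BTPRZ-T replicate 1 and 8.37 to 22.4 CPM in the other BTPRZ-T libraries, 20.3 to 59.5 CPM in BT-T, and 102 CPM in N replicate 2 against 4.15 to 14.4 CPM in the other N libraries. Cxcr2, a chemokine receptor of neutrophils, had 4.87 CPM in N replicate 2 and at most 0.345 CPM in the other N libraries. For Il11 the closest were the neutrophil chemoattractant gene Cxcl1 at 0.544, Ly6c1 at 0.570 and S100a8, a neutrophil marker, at 0.602 (spread of Il11 1.72). For Lif they were Runx2 at 0.648, a bone and stroma transcription factor, Ppl at 0.689, a desmosome component of epithelia, and Adamts7 at 0.757 (spread of Lif 1.84). For Osm they were Arl5c and Lrmp at 0.420 and Pilrb2 at 0.433 (spread of Osm 1.07), and for Socs3 they were Icam1 at 0.416, Tspan4 at 0.438 and Pla2g7 at 0.458 (spread of Socs3 1.17). Over the other 9 libraries, 0 of the 3 genes stayed among the closest 3 for Il6 (Ptgs2 came to rank 92) and for Osm, and 1 of 3 stayed for Il11 (Cxcl1), for Lif (Runx2, at rank 1 with 0.287) and for Socs3 (Tspan4), an alternative chosen after seeing the data. Likeness of this kind describes 12 libraries in 3 groups and says nothing of shared function.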

How the data were processed

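RNA was measured in 12 mouse colon libraries, 4 each of BTPRZ-T, BT-T and N. A stranded poly(A) kit and single-end reads 100 bases long were used, per the labels' protocols. Per the submitters' processing notes, the tools were bcl2fastq 2.20, STAR 2.4.2a, edgeR 3.16.5, limma and HTSeq, on mm10, with the annotation not given in the sources used here. Values as deposited are raw read counts per gene symbol, with no normalization by the authors. The files list 0 reads placed at several loci. Unmapped, unassigned and ambiguous reads, 27.8 to 40% of all entries, were left out of library sizes and tests.

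The stranded column with more gene reads was used, and the opposite strand held 0.819 to 0.994% as many. Under R 4.3.3 and edgeR 4.0.16, genes were filtered with filterByExpr (14860 left), scaled by TMM factors, and fitted with a robust quasi-likelihood model over all 12 libraries, 1 mean per group. The common biological coefficient of variation was 0.501. Contrasts were two-sided, with Benjamini-Hochberg adjustment over all genes tested; BTPRZ-T against BT-T also tests whether the 2 effects against N differ. Values after ± are SDs for levels and standard errors for log2 fold changes. Where a whole group held no read, the fold is a bound set at 3 reads over the group, which covers counting error only. Symbols were matched to GENCODE M21 (GRCm38) for positions and lengths (union of exons), and promoters are from RefSeq. The fit was tested on simulated counts.

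Alternatives were DESeq2 1.42.0, voom in limma 3.58.1, RLE factors, the unstranded column, dropping the filter or requiring 2 CPM in 4 libraries, fitting only 2 groups, a replicate term, leaving out each library, and leaving out the 3 libraries with the fewest detected genes. A term for Y-linked transcripts, and likeness and levels per kilobase without those 3 libraries, were added after the data were examined. The 10 genes and all lists were chosen with earlier results of these data known. By rule, the text names all 10 genes, up to 4 genes with the lowest adjusted p of each pathway list and comparison, and the 3 genes most like each ligand and Socs3 in pattern (predicted genes left out, mean of at least 1 CPM); Stat3 and the genes at 0 reads were named after their values were seen. Some genes that the rule takes are left out. No sample was dropped or imputed outside those alternatives.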

Additional observations from a re-analysis of the deposited data

Results flagged for a closer look

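Il6 stood at 7.16 CPM in BTPRZ-T replicate 1, against 0.335 CPM in the next library of the group and 0 CPM in the lowest. The gap was 0.953 of the range of the group, above the 95% critical value of Dixon's test for 4 samples. Neutrophil markers summed to 63.0 CPM in this library, the highest of its group, and their part in the Il6 level was not tested.

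Il6 stood at 4.20 CPM in N replicate 2, against 0 CPM in the other 3 N libraries, a gap equal to the whole range. The same library had 14175 genes detected, 9.86% of its reads in ribosomal protein genes, and 20.9 CPM of neutrophil markers. Of 30 groups of 4 libraries tested in this way, 2 passed, both for Il6, and chance passes about 1 in 20.

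In the test over all 12 libraries, the effect against N differed between the tumours for 2 receptors, and both calls were lost with the term for Y-linked transcripts (adjusted p = 0.1 for Lifr and 0.146 for Il6st). Both were also lost with the term for replicate number (adjusted p = 0.0738 for Lifr and 0.0973 for Il6st). For Lifr, the log2 fold change against N in BTPRZ-T minus that in BT-T was -1.58 (edgeR, adjusted p = 0.0353), and all 4 BTPRZ-T libraries were below all 4 BT-T libraries. For Il6st it was -1.51 (edgeR, adjusted p = 0.0438), again with 4 of 4 BTPRZ-T libraries below BT-T. Fibroblast markers summed to 1905 to 8635 CPM in BTPRZ-T and 8729 to 17010 CPM in BT-T, and their part in these differences was not tested.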

How the results depend on the processing

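Of 655 values of the 10 genes over 22 alternatives, 561 kept direction and call, 54 lost the call, 29 gained one and 11 changed sign. Genes called in BT-T against N numbered 1274; DESeq2 gave 2394, leaving out the 3 libraries with few detected genes 4359, and leaving out 1 library 624 to 2030. In BTPRZ-T against N they numbered 1760, with DESeq2 3048, the 2 groups alone 647, the replicate block 1160, without the 3 libraries 5311, the term for Y-linked transcripts 1063, and without 1 library 1076 to 4855. In BTPRZ-T against BT-T they numbered 112, with DESeq2 1217, voom 266, the 2 groups alone 1568, the replicate block 1, without the 3 libraries 3723, the Y-linked term 0 (1856 at an unadjusted p under 0.05), and without 1 library 0 to 2714. The highest of these counts in each comparison came without N replicate 2, and the 0 came without BT-T replicate 2 or 4 or BTPRZ-T replicate 3 (1669, 1662 and 2509 at an unadjusted p under 0.05). Members called were 5 in BT-T against N, with 8 without the 3 libraries and 2 to 7 without 1 library. They were 2 in BTPRZ-T against N, with 1 under the filter of 2 CPM, 0 with the 2 groups alone (3 at an unadjusted p under 0.05), 1 with the replicate block, 6 without the 3 libraries, 0 with the Y-linked term (4 unadjusted) and 0 to 5 without 1 library. They were 2 in BTPRZ-T against BT-T, with 4 for the 2 groups alone, 0 with the replicate block (3 unadjusted), 5 without the 3 libraries, 0 with the Y-linked term (3 unadjusted) and 0 to 5 without 1 library. DESeq2 called 7 members in BT-T against N, 3 in BTPRZ-T against N and 3 in BTPRZ-T against BT-T, and voom 6, 2 and 3.

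The log2 fold changes that changed sign had passed in neither setting. Il11ra1 in BT-T against N was 0.16 without the 3 libraries and 0.10 without N replicate 2 (-0.42 to 0.10 without 1 library). In BTPRZ-T against N, Il6 was -2.94 without BTPRZ-T replicate 1 (-2.94 to 8.23 without 1 library), and Il6ra was 0.15 with voom and 0.17 without N replicate 4 (-1.09 to 0.17 without 1 library). In BTPRZ-T against BT-T, Il11 was -0.21 without the 3 libraries, and Il6 was 0.070 with the Y-linked term and -3.82 to 0.37 without 1 library, at 0.27 without BT-T replicate 2 and 0.31, 0.37 and 0.33 without BTPRZ-T replicates 2, 3 and 4. The cause of these moves was not tested.

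The replicate numbers are not stated to pair the samples. Same-numbered libraries correlated above 0.1 in 1 of 4 pairs in BT-T against N, 1 of 4 in BTPRZ-T against N and 3 of 4 in BTPRZ-T against BT-T (r from 0.0172 to 0.397). The main test did not take the numbers as pairs, and whether the tumour libraries were paired is not known. With the block, 4, 1 and 0 members and 945, 1160 and 1 genes were called in those comparisons, and in BTPRZ-T against BT-T Lifr had an adjusted p of 0.0738 (log2 fold change -1.61) and Il6st of 0.0973 (-1.50). At this depth, ligands near the floor of 3 reads, Il6 and Osm, are the least precise.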
